A study of Homo sapiens with 8 samples.

Results

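The genes described here are those of WNT signalling at the cell surface and its best-known nuclear ends. Every gene symbol made of WNT, FZD, DKK or SFRP followed by digits and at most 1 letter was taken, together with LRP5, LRP6, AXIN2, LEF1 and TCF7. This gave 42 of the 30017 symbols in the deposited tables: 19 WNT ligands, 10 Frizzled receptors, 4 DKK inhibitors, 4 SFRP inhibitors, 2 LRP co-receptors and 3 nuclear or target genes. Their RNA was measured by RNA sequencing in A549-S3KO cells, a line made from A549 (a human lung adenocarcinoma cell line) by knocking out SMAD3 with a double nickase. All cells thus lacked endogenous Smad3 and carried, by lentivirus, either wild-type Smad3 or Smad3 R104K A105P, here called Smad3(RA/KP), which has 2 substitutions in the DNA-binding MH1 domain. Each line was left untreated or stimulated with TGF-β at 1 ng/ml for 8 h, with 2 libraries in each of the 4 groups, 8 in all. Cells were freshly trypsinized and placed on collagen when TGF-β was added. The infected cells had been cloned, for wild-type Smad3 from a clone chosen for low expression, and the clones sequenced are not named in the sources used here, so a difference between the lines cannot be told apart from a difference between clones.

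WNT proteins are secreted, lipid-modified ligands that bind Frizzled receptors together with the co-receptor LRP5 or LRP6. In the canonical branch this stops the destruction of β-catenin, which then enters the nucleus and activates genes with factors of the TCF and LEF family, while other branches act through planar polarity and calcium signalling. DKK proteins block LRP5 and LRP6, SFRP proteins bind WNT ligands outside the cell, and AXIN2 is a classical β-catenin target that feeds back on the pathway. Smad3 is the transcription factor through which TGF-β receptors act on many genes, and TGF-β and WNT signals are known to meet on shared genes in epithelial cells.

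Levels are given in TPM, which scales each library to a total of 1000000 transcripts and is corrected for transcript length. The libraries held 1.15 to 1.81 Gb of mapped bases, and 1 TPM stood for a mean base coverage of 0.683 to 0.999. All 10 genes on a list of well-known TGF-β targets were called higher (limma adjusted p under 0.05) in cells with wild-type Smad3, against 2.94% of all genes tested. In cells with Smad3(RA/KP) 9 of 10 were, against 3.49%. SKIL, which did not pass there, went from 2.87 and 4.85 TPM to 7.30 and 5.67 TPM. SNAI2 reached a mean of 1 TPM only through its treated libraries. The list was chosen with earlier results of these data known, so these counts are a description. SMAD3 itself, introduced and residual transcripts together, was at 137 to 187 TPM in the 8 libraries. Of the epithelial markers looked at, the keratins KRT7, KRT8 and KRT18 were at 2533 to 6862 TPM. EPCAM, CDH1 and MUC1 were far lower, at 1.40 to 10.3 TPM. KRT19, which A549 cells are known to express, was listed at 0 in every library, so a listed 0 may be a failed estimate. Markers of leukocytes, endothelium, fibroblasts or muscle, and erythroid cells never reached 1 TPM, except CD68, LUM and ACTA2. The untreated Smad3(RA/KP) libraries stood apart as a pair. In untreated Smad3(RA/KP) cells the difference between replicates 2 and 1 followed the GC content of the transcript (Spearman −0.589 across 11535 genes, which are not independent replicates). In the other 3 groups the Spearman value was 0.104 to 0.225. A difference between 2 libraries cannot show which of them was the odd one. For WNT7B, WNT11, FZD2, LRP5 and DKK1, the response with Smad3(RA/KP) is given with and without its untreated replicate 2. The study describes 2 independent experiments, and the replicate number was taken to mark the experiment.

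The promoters of the genes that moved with TGF-β are shown first. The study places the changed residues on the outside of the MH1 domain, as a possible surface for binding other proteins. It reports that Smad3(RA/KP) still activated a reporter driven by CAGA sequences. Windows of 300 bases, from 250 before to 50 after the transcript start, were taken from RefSeq (GRCh38.p14) and were held for 28 of the 42 genes, among them 5 of the 6 that passed the test in either line. FZD2 is the gene without one. Each window is written 5′ to 3′ on the gene's own strand, which is the minus strand for WNT7A and the plus strand for the others. Capitals mark matches, on either strand, to CTTTGA (the core bound by TCF and LEF factors), CAGAC (the Smad3 box) and TGANTCA (the AP-1 site).
WNT5B upstream start, chr12:1616806-1617105: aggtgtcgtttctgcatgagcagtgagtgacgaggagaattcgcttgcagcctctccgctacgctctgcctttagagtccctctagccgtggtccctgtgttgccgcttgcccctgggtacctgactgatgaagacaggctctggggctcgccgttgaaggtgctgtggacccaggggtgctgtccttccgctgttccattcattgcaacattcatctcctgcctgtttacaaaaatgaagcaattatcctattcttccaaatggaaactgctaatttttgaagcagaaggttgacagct
WNT5B downstream start, chr12:1628981-1629280: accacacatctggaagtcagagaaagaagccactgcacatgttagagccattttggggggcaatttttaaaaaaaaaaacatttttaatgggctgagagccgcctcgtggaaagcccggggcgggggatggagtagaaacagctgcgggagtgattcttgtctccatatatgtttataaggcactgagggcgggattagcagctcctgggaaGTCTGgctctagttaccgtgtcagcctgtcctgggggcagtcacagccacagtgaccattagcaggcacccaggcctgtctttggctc
WNT7A, chr3:13880022-13880321: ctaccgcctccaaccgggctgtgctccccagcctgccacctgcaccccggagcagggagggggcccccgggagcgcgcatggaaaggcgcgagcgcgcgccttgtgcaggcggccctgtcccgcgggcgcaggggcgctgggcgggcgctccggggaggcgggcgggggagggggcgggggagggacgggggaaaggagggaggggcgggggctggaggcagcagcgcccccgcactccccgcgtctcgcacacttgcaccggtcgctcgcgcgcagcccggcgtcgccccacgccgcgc
TCF7 upstream start, chr5:134115363-134115662: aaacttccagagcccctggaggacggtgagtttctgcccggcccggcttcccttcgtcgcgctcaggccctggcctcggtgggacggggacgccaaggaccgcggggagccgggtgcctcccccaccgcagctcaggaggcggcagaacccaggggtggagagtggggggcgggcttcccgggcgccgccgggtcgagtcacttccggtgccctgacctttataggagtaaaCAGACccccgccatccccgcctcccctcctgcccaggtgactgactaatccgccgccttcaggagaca
DKK1, chr10:52314031-52314330: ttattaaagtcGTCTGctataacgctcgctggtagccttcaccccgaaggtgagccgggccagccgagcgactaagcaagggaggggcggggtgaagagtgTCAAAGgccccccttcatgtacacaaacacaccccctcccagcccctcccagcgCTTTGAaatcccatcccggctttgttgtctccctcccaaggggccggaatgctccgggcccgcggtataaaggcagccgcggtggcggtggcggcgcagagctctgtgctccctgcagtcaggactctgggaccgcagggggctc

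The DKK1 window held CTTTGA on both strands, 149 and 95 bases before the start, and 1 Smad3 box 239 bases before it. The window at the downstream WNT5B start held 1 Smad3 box 38 bases before the start, and the upstream TCF7 window held 1, 18 bases before it. A second TCF7 window, at chr5:134123368-134123667, also held 1, and the LRP5 window at chr11:68312341-68312640 held no match. None of the 3 motifs was found at the upstream WNT5B start or in WNT7A, and TGANTCA was in none of these windows. Over all 35116 RefSeq windows of this length, 12.9% held CTTTGA, 45.3% CAGAC and 7.71% TGANTCA. These matches describe letters in a short window and not binding.

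TGF-β moved a small number of the genes, and moved WNT5B, WNT7A and TCF7 upward in both lines. Of the 42 genes, 23 had a mean of at least 1 TPM and were tested, and 12 were listed at 0 in every library. In cells with wild-type Smad3, 5 of the 23 passed an adjusted p of 0.05 (limma on log2(TPM + 1), Benjamini-Hochberg over 13141 genes), against 4.68% of all genes tested. WNT5B, WNT7A and TCF7 were higher, a direction in which 2.94% of all genes were called, and LRP5 and FZD2 were lower, against 1.74%. In cells with Smad3(RA/KP), 4 of the 23 passed, against 4.98% of all genes. The same 3 genes were higher, against 3.49%, and DKK1 was lower, against 1.50%. WNT5B, WNT7A and WNT11 reached a mean of 1 TPM only through their treated libraries, and AXIN2 only through its untreated ones, so these counts are a description. With no filter on low values, WNT5B, WNT7A and TCF7 passed in both lines. The median log2 fold change of the 23 genes was −0.06 with wild-type Smad3 and −0.07 with Smad3(RA/KP), beside −0.06 and −0.10 over all genes. In all 4 ratios of treated to untreated cells, 2 experiments in each line, 5 genes were higher (WNT5B, WNT7A, TCF7, WNT3 and WNT9A) and 6 were lower (LRP5, FZD2, DKK1, SFRP1, FZD4 and AXIN2). The share of all genes that kept 1 direction in all 4 ratios was not computed, so these 2 counts are only a description. RNA was taken from whole cultures, so fewer cells with a transcript and less of it per cell cannot be told apart.

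**Figure D1:**
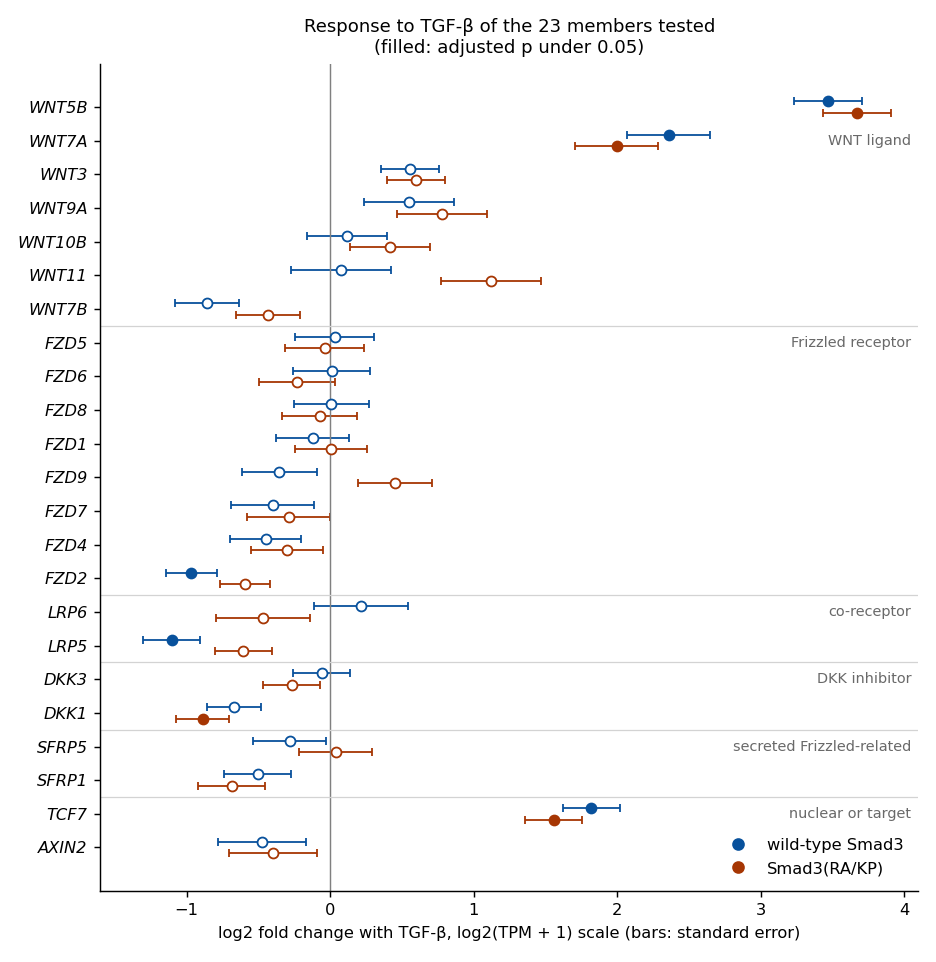
Log2 fold change with TGF-β (horizontal axis, log2(TPM + 1) scale) of the 23 tested genes, grouped by role, in cells with wild-type Smad3 (blue) and Smad3(RA/KP) (red). Points are limma estimates, bars are standard errors, and filled points have an adjusted p under 0.05. WNT5B lies farthest to the right in both lines, at 3.47 and 3.67, while most Frizzled receptors lie near 0. The position of WNT7A, listed at 0 without TGF-β, depends on the 1 TPM added.

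Among the ligands, WNT5B showed the largest rise. WNT5B (chr12:1617056-1647213, plus strand, GRCh38) encodes a ligand known mainly for the branches that do not run through β-catenin. It stood at 1.06 and 0.594 TPM in untreated cells with wild-type Smad3 and at 21.6 and 16.8 TPM after TGF-β. In cells with Smad3(RA/KP) it went from 0.399 and 0.388 TPM to 19.0 and 14.8 TPM. Every treated library lay far above every untreated one, and the treated levels of the lines overlapped. The TPM ratio was 20.4 and 28.3 in the experiments with wild-type Smad3, and 47.7 and 38.1 with Smad3(RA/KP), where the untreated level was the lower of the 2 lines. On the log2(TPM + 1) scale the rise was 3.47 ± 0.24 (SE; limma adjusted p = 0.000145) and 3.67 ± 0.24 (limma adjusted p = 0.000138). The difference between these responses was 0.20 ± 0.33 (limma adjusted p = 0.913).

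WNT7A (chr3:13818585-13880121, minus strand), which encodes a ligand known for roles in limb patterning and in epithelia, was listed at 0 in all 4 untreated libraries. After TGF-β it was at 3.88 and 4.40 TPM with wild-type Smad3 and at 2.40 and 3.68 TPM with Smad3(RA/KP). The treated and untreated groups did not overlap in either line, and no fold change is given against a listed 0. The test passed with wild-type Smad3 (limma adjusted p = 0.00231) and with Smad3(RA/KP) (limma adjusted p = 0.00583). These calls depended on single treated libraries. Without treated wild-type replicate 1 or 2 the adjusted p became 0.0617 or 0.0512, and without treated Smad3(RA/KP) replicate 2 it became 0.0739.

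WNT7B (chr22:45920366-45977128, minus strand), a ligand known from lung development, was by far the most abundant. It was at 207 and 161 TPM in untreated cells with wild-type Smad3 and at 103 and 98.0 TPM after TGF-β. With Smad3(RA/KP) the untreated libraries held 197 and 101 TPM and the treated ones 107.5 and 101 TPM. The groups did not overlap with wild-type Smad3, whereas with Smad3(RA/KP) the second untreated library lay at the treated level. The log2 fold change was −0.85 ± 0.22 (limma adjusted p = 0.0704) and −0.43 ± 0.22 (limma adjusted p = 0.288), and neither passed. In the Smad3(RA/KP) line the value turned on the untreated libraries, being −0.83 without untreated replicate 2 and −0.04 without untreated replicate 1. With the trend on GC content removed from each library, WNT7B passed in both lines (limma adjusted p = 0.0144 and 0.0284). With wild-type Smad3 it also passed without either untreated Smad3(RA/KP) library (0.0116 and 0.0112) and when the filter was raised to a mean of 5 TPM (0.0461).

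WNT3, a canonical ligand, was at 7.01 and 7.62 TPM untreated and 10.4 and 12.1 TPM treated in cells with wild-type Smad3. In cells with Smad3(RA/KP) it was at 7.24 and 9.36 TPM untreated and 11.5 and 14.7 TPM treated. Treated libraries lay above untreated ones throughout, by 1.48-fold to 1.59-fold in TPM within an experiment, but the test was not passed (log2 fold change 0.55 ± 0.20, limma adjusted p = 0.194, and 0.60 ± 0.20, limma adjusted p = 0.134). WNT11, a ligand of the planar polarity branch, was at 1.09 and 1.82 TPM untreated and 1.34 and 1.81 TPM treated under wild-type Smad3. Under Smad3(RA/KP) it was at 0.679 TPM and listed at 0 untreated, and at 1.84 and 1.80 TPM treated (log2 fold change 1.12 ± 0.35, limma adjusted p = 0.109). That value was 1.61 (adjusted p = 0.0243) without untreated replicate 1, which leaves the listed 0 as the only untreated library, and 0.64 (adjusted p = 0.427) without untreated replicate 2. WNT9A ranged from 2.32 to 7.50 TPM and WNT10B from 1.68 to 3.94 TPM over the 8 libraries, and neither passed.

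The make-up of the ligand pool therefore differed between treated and untreated cells. Summed over the 19 ligands, the level was 222 and 179 TPM in untreated and 149.7 and 141 TPM in treated cells with wild-type Smad3. In cells with Smad3(RA/KP) it was 213 and 116 TPM in untreated and 155 and 144 TPM in treated cells. WNT7B supplied 93.4 and 89.9% of this sum in untreated cells with wild-type Smad3 and 68.8 and 69.7% after TGF-β, and with Smad3(RA/KP) 92.7 and 86.6% before and 69.5 and 70.0% after. WNT5B supplied 0.187 to 0.478% in the 4 untreated libraries and 10.3 to 14.5% in the 4 treated ones. Even so, after TGF-β WNT7B remained the most abundant ligand in all 4 libraries, and its share in the library that stood apart was above that of every treated library. These shares follow from the levels above and were not tested separately.

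**Figure D2:**
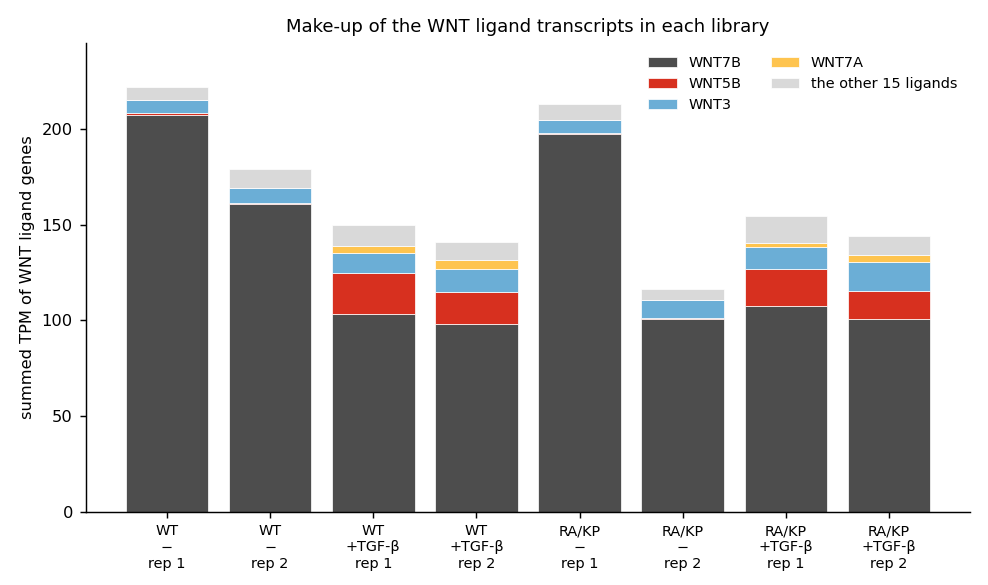
Summed TPM of the 19 WNT ligands in each of the 8 libraries (vertical axis), stacked by gene. WNT7B (dark grey) makes up 86.6 to 93.4% of the bar in untreated cells and 68.8 to 70.0% in treated cells, where WNT5B (red) appears with 10.3 to 14.5%. Smad3(RA/KP) without TGF-β, replicate 2, is the shortest bar, at 116 TPM.

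Of the 10 Frizzled receptors, 8 were tested, and FZD2 (chr17:44557444-44561262, plus strand) was the one that passed. FZD2 is the most abundant receptor of the family in these cells. It fell from 65.9 and 51.0 TPM to 36.6 and 23.2 TPM in cells with wild-type Smad3. In the line with Smad3(RA/KP) it was at 67.6 and 38.2 TPM untreated and 39.5 and 28.3 TPM treated. The groups were separate with wild-type Smad3 and overlapped with Smad3(RA/KP). The log2 fold change was −0.97 ± 0.18 (limma adjusted p = 0.0160) with wild-type Smad3 and −0.59 ± 0.18 (limma adjusted p = 0.101) with Smad3(RA/KP). The call with wild-type Smad3 was lost when the replicate number was not used as a block (adjusted p = 0.223), and without any 1 of the 4 libraries of that line (adjusted p = 0.0953 to 0.253). In the Smad3(RA/KP) line FZD2 was at −0.75 without untreated replicate 2 and at −0.43 without untreated replicate 1. It passed there once the GC trend was removed (−0.71, limma adjusted p = 0.0219).

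The other 7 tested receptors were far lower and did not pass. FZD6, a receptor known for planar polarity, was at 7.74 to 13.8 TPM, and FZD4, FZD5, FZD7, FZD9, FZD1 and FZD8 together ranged from 1.65 to 5.84 TPM. Their log2 fold changes lay between −0.45 ± 0.25 (FZD4) and 0.03 ± 0.28 (FZD5) with wild-type Smad3 and between −0.30 ± 0.25 (FZD4) and 0.45 ± 0.26 (FZD9) with Smad3(RA/KP). FZD9 was at 3.44 and 3.91 TPM untreated and 3.18 and 2.20 TPM treated under wild-type Smad3, and at 2.65 and 2.98 TPM untreated and 4.32 and 4.11 TPM treated under Smad3(RA/KP). The summed level of the family was 102.5 and 82.1 TPM in untreated and 68.0 and 51.8 TPM in treated cells with wild-type Smad3. With Smad3(RA/KP) it was 99.9 and 73.5 TPM in untreated and 75.1 and 54.2 TPM in treated cells. FZD2 supplied 44.8 to 67.7% of these sums.

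The co-receptor LRP5 (chr11:68312609-68449275, plus strand) was the abundant one of the pair, supplying 78.5 to 94.0% of the summed LRP5 and LRP6 level. It fell from 71.3 and 71.9 TPM to 31.6 and 34.0 TPM in cells with wild-type Smad3. Under Smad3(RA/KP) it was at 73.8 and 53.3 TPM untreated and 48.5 and 34.6 TPM treated. Treated libraries lay below untreated ones in both lines. The log2 fold change was −1.10 ± 0.20 (limma adjusted p = 0.0151) and −0.60 ± 0.20 (limma adjusted p = 0.127), and the difference between them was 0.50 ± 0.28 (limma adjusted p = 0.881). With wild-type Smad3 the call was lost without any 1 of the 4 libraries of that line. With Smad3(RA/KP) the value was −0.77 without untreated replicate 2 and −0.43 without untreated replicate 1. LRP5 passed in that line once the GC trend was removed (−0.89, limma adjusted p = 0.0136). An antisense record that overlaps LRP5 was listed at 0 in every library. LRP6 ranged from 4.16 to 9.31 TPM with no change that passed.

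DKK1 (chr10:52314281-52317657, plus strand), the LRP-blocking inhibitor whose promoter held the CTTTGA matches above, was the second most abundant of the 42 genes after WNT7B. It was at 118 and 119.8 TPM untreated and 79.2 and 70.0 TPM treated in cells with wild-type Smad3. In the line with Smad3(RA/KP) it was at 107 and 117 TPM untreated and 71.6 and 50.2 TPM treated. No treated library reached any untreated one in either line. The log2 fold change was −0.67 ± 0.19 (limma adjusted p = 0.0864) with wild-type Smad3 and −0.89 ± 0.19 (limma adjusted p = 0.0303) with Smad3(RA/KP), and the difference was −0.22 ± 0.26 (limma adjusted p = 0.897). The value with Smad3(RA/KP) was −1.06 without untreated replicate 1. The call with Smad3(RA/KP) was lost without untreated replicate 2 (−0.71, adjusted p = 0.140), without treated replicate 2 (adjusted p = 0.245), without either treated library of the other line (0.0791 and 0.0785), with no replicate block (0.0718), with no mean-variance trend (0.0766) and with no filter on low values (0.107). With wild-type Smad3 DKK1 passed once the GC trend was removed (adjusted p = 0.0217), and without either untreated library of the other line (0.0460 and 0.0454).

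The remaining inhibitors did not pass. SFRP1, which binds WNT ligands, was at 21.3 and 22.2 TPM untreated and 16.7 and 13.6 TPM treated under wild-type Smad3 (log2 fold change −0.50 ± 0.23, limma adjusted p = 0.336). With Smad3(RA/KP) it was at 25.2 and 24.9 TPM untreated and 20.3 and 11.4 TPM treated (−0.69 ± 0.23, limma adjusted p = 0.141). DKK3, an outlying member of its family, was at 12.1 to 16.6 TPM and SFRP5 at 4.27 to 10.5 TPM. Summed over DKK and SFRP genes, the level was 154 to 169 TPM in the 4 untreated libraries and 81.9 to 116 TPM in the 4 treated ones, and DKK1 supplied 61.2 to 74.0% of it.

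TCF7 (chr5:134114711-134148229, plus strand), one of the DNA-binding partners of β-catenin, rose in both lines. It was at 8.16 and 6.65 TPM untreated and 28.1 and 29.1 TPM treated under wild-type Smad3. Under Smad3(RA/KP) it was at 10.6 and 7.97 TPM untreated and 30.1 and 28.0 TPM treated. The treated levels of the lines overlapped and lay well above all untreated ones. The log2 fold change was 1.82 ± 0.20 (limma adjusted p = 0.00134) and 1.56 ± 0.20 (limma adjusted p = 0.00314), and the difference was −0.26 ± 0.28 (limma adjusted p = 0.887).

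LEF1, of the same factor family, was listed at 0 in every library. Of the TPM of the 4 TCF and LEF genes together, TCF7 supplied 31.0 to 37.6% in untreated and 55.0 to 60.7% in treated libraries. TCF7L2, the most abundant of them in untreated cells at 9.20 to 11.8 TPM, had log2 fold changes of −0.06 ± 0.22 and −0.13 ± 0.22. AXIN2, the target gene of the list, was low. In cells with wild-type Smad3 it was at 2.102 and 0.370 TPM untreated and 0.866 and 0.184 TPM treated. In the line with Smad3(RA/KP) it was at 3.16 and 0.586 TPM untreated and 1.97 and 0.282 TPM treated. Each replicate 1 library lay above each replicate 2 library whatever the treatment, and the log2 fold changes of −0.47 ± 0.31 and −0.40 ± 0.31 did not pass (limma adjusted p = 0.540 and 0.473).

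**Figure D3:**
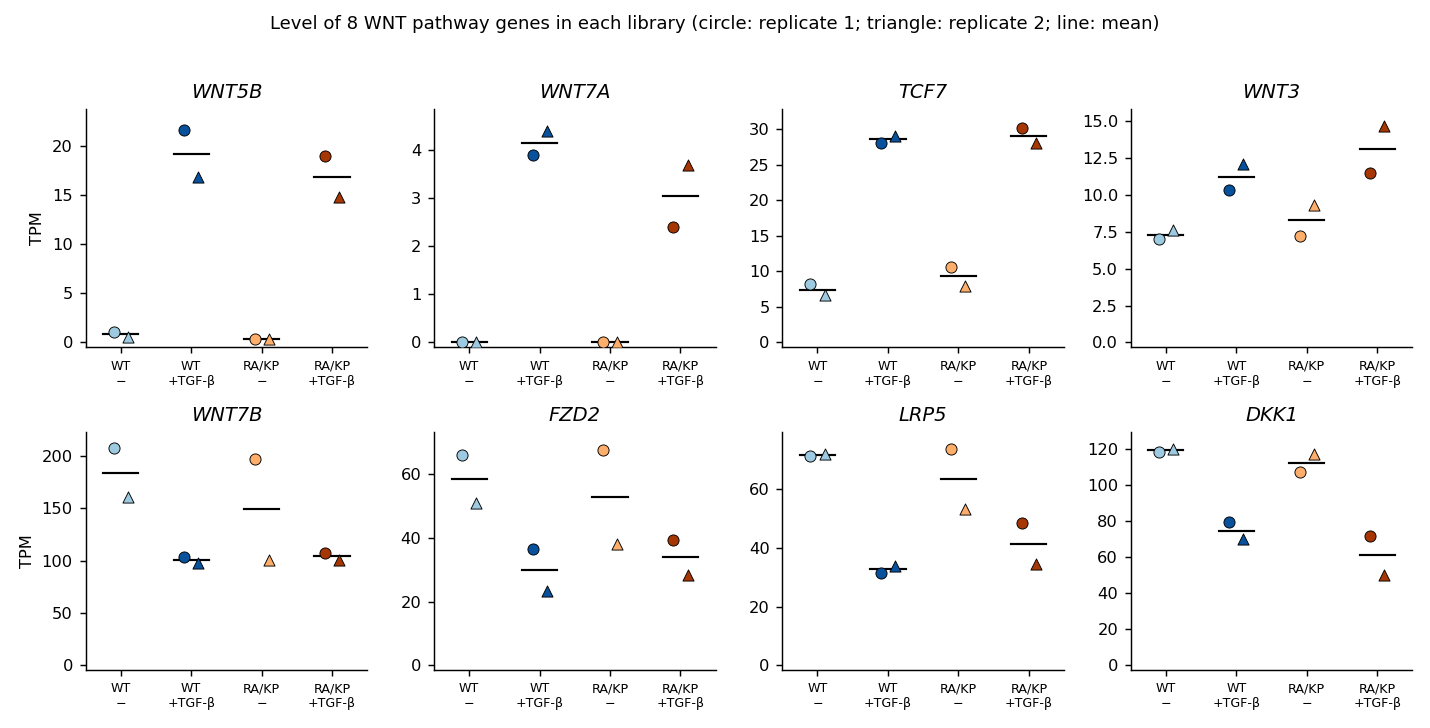
TPM of 8 genes in each library, with circles for replicate 1, triangles for replicate 2 and a line at the mean, for wild-type Smad3 (blue) and Smad3(RA/KP) (orange and red) without and with TGF-β. In the upper row WNT5B, WNT7A, TCF7 and WNT3 are higher in every treated library than in every untreated one, though WNT3 did not pass the test. In the lower row the second untreated library of Smad3(RA/KP) sits below the first for WNT7B (101 against 197 TPM), FZD2 and LRP5 but not for DKK1.

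Among the 19 genes under a mean of 1 TPM, 7 were above 0 in some library and 3 reached 1 TPM. SFRP4 was at 1.79 TPM and listed at 0 untreated and at 1.49 and 0.392 TPM treated under wild-type Smad3, and at 1.03 and 0.354 TPM untreated and 1.02 and 0.260 TPM treated under Smad3(RA/KP). FZD3 was at 0.579 to 1.45 TPM, and WNT2B reached 1.16 TPM in 1 untreated wild-type library and at most 0.356 TPM in the others. WNT4, WNT5A, WNT6 and WNT10A stayed below 1 TPM. WNT5A, the closest relative of WNT5B, did not exceed 0.147 TPM. The 12 genes listed at 0 throughout were WNT1, WNT2, WNT3A, WNT8A, WNT8B, WNT9B, WNT16, FZD10, DKK2, DKK4, SFRP2 and LEF1. A listed 0 does not show that the transcript is absent.

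The comparison the study was built on, whether the response differs between Smad3 and Smad3(RA/KP), gave no call among these genes. None of the 23 had a difference of responses with an adjusted p under 0.05 (limma), none had an unadjusted p under 0.05, and 3 of all 13141 genes were called (0.0228%, with 0.00761% higher and 0.0152% lower in Smad3(RA/KP)). The differences ranged from −0.68 ± 0.46 (LRP6) to 1.04 ± 0.49 (WNT11) on the log2 scale. FZD9 followed with 0.80 ± 0.37. The LRP6 and WNT11 values are given only with untreated replicate 2 of Smad3(RA/KP). In that library LRP6 was at 9.19 TPM, against 4.69 TPM in replicate 1, and WNT11 was listed at 0. With 2 libraries a group the standard errors of these differences were 0.25 (FZD2) to 0.49 (WNT11), so differences of that size could not be resolved. The lines themselves also gave no call among the 23 genes. Without TGF-β 0.0152% of all genes were called, all lower in Smad3(RA/KP) and 0% higher, and WNT11 alone of the 23 had an unadjusted p under 0.05 (−0.91 ± 0.35, limma adjusted p = 1). This WNT11 value includes the same listed 0. With TGF-β 0.00761% of all genes were called, all lower, and SFRP5 alone had an unadjusted p under 0.05. SFRP5 was at 4.94 and 6.06 TPM (untreated) and 4.40 and 4.27 TPM (treated) with wild-type Smad3, and at 6.65 and 10.5 TPM (untreated) and 9.32 and 8.01 TPM (treated) with Smad3(RA/KP). The treated lines differed by 0.85 ± 0.25 (limma adjusted p = 0.612).

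The rest of the pathway was described through 6 lists of known components, whose calls stand beside the 4.68 and 4.98% of all genes called in the lines. In the list of genes for WNT secretion and co-receptors, 17 were tested. SDC4, a heparan sulphate proteoglycan of the cell surface, rose with wild-type Smad3 from 43.4 and 57.2 TPM to 95.4 and 101.5 TPM (log2 fold change 0.97 ± 0.18, limma adjusted p = 0.0182). Its relative SDC1 rose with Smad3(RA/KP) from 171 and 136 TPM to 309.7 and 477 TPM (1.33 ± 0.24, limma adjusted p = 0.0156). GPR124, also named ADGRA2, a co-receptor known to be specific for WNT7A and WNT7B, rose there from 2.20 and 2.11 TPM to 5.84 and 5.59 TPM (1.09 ± 0.26, limma adjusted p = 0.0464). In the line where each of these did not pass, the value was 0.65 ± 0.18 for SDC4, 0.98 ± 0.24 for SDC1 and 0.91 ± 0.26 for GPR124.

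Of the 9 tested genes for extracellular inhibitors and the R-spondin system, NOTUM, which inactivates WNT ligands by removing their lipid, rose in both lines. It went from 0.689 and 1.97 TPM to 4.26 and 5.66 TPM with wild-type Smad3 (1.40 ± 0.27, limma adjusted p = 0.0210). With Smad3(RA/KP) it went from 0.429 and 0.680 TPM to 3.25 and 5.37 TPM (1.75 ± 0.27, limma adjusted p = 0.00826). NOTUM reached a mean of 1 TPM only through its treated libraries. LGR4, a receptor for R-spondins, was lower in cells with Smad3(RA/KP), where it fell from 18.0 and 19.6 TPM to 10.2 and 2.85 TPM (−1.59 ± 0.34, limma adjusted p = 0.0335), and its value with wild-type Smad3 was −1.32 ± 0.34.

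Of 28 cytoplasmic components tested, 3 were called higher with wild-type Smad3 and 2 with Smad3(RA/KP), and none was called lower. Of all genes, 2.94 and 3.49% were called higher and 1.74 and 1.50% lower. DVL1, which relays the signal from the receptors, rose from 52.1 and 73.9 TPM to 119 and 151.5 TPM with wild-type Smad3 (1.10 ± 0.19, limma adjusted p = 0.0137) and from 66.1 and 56.7 TPM to 133 and 167 TPM with Smad3(RA/KP) (1.27 ± 0.19, limma adjusted p = 0.00756). DACT1, a regulator that binds Dishevelled, rose in both lines (1.53 ± 0.29, limma adjusted p = 0.0192, and 1.36 ± 0.29, limma adjusted p = 0.0329). It reached a mean of 1 TPM only through its treated libraries, so the counts of this list are a description. CTNNB1, which encodes β-catenin, rose from 93.3 and 98.8 TPM to 202 and 209.9 TPM with wild-type Smad3 (1.09 ± 0.21, limma adjusted p = 0.0218). Under Smad3(RA/KP) it was at 89.5 and 139.9 TPM untreated and 159 and 128.5 TPM treated, so that the groups overlapped (0.35 ± 0.21, limma adjusted p = 0.365). Only in replicate 2 did the untreated library lie above the treated one. Without untreated replicate 2 the value was 0.70 and still did not pass. With the GC trend removed CTNNB1 passed in both lines (limma adjusted p = 0.00199 and 0.0295). The difference of the main responses, −0.74 ± 0.30, did not pass (limma adjusted p = 0.881), and was −0.40 without untreated replicate 2 of Smad3(RA/KP).

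Of 20 nuclear cofactors, TLE4, a corepressor that binds TCF factors, was lower in both lines. It fell from 14.7 and 15.2 TPM to 4.25 and 4.79 TPM with wild-type Smad3 (−1.53 ± 0.22, limma adjusted p = 0.00572), and from 15.4 and 14.6 TPM to 8.06 and 5.72 TPM with Smad3(RA/KP) (−1.04 ± 0.22, limma adjusted p = 0.0341). TCF7L1, a mainly repressive member of the TCF family, and SOX4 rose with Smad3(RA/KP) (1.13 ± 0.24, limma adjusted p = 0.0331, and 0.95 ± 0.21, limma adjusted p = 0.0349), and their values with wild-type Smad3 were 0.82 ± 0.24 and 0.81 ± 0.21.

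Of 33 genes known as targets of β-catenin and TCF, other than the 42, 22 were tested. With wild-type Smad3, 4 were called higher and 2 lower, and with Smad3(RA/KP) 6 higher and 1 lower. These counts are read against the same shares of all genes, 2.94 and 3.49% higher and 1.74 and 1.50% lower. JUN, a subunit of AP-1, rose from 44.6 and 84.2 TPM to 147.5 and 199 TPM with wild-type Smad3 (1.47 ± 0.18, limma adjusted p = 0.00218) and by 1.58 ± 0.18 with Smad3(RA/KP) (limma adjusted p = 0.00183). EPHB2, an ephrin receptor, rose from 33.7 and 53.6 TPM to 97.2 and 119 TPM with wild-type Smad3 (1.32 ± 0.19, limma adjusted p = 0.00541) and by 1.29 ± 0.19 with Smad3(RA/KP) (limma adjusted p = 0.00624). NOTUM and DACT1, already described, were the others called higher in both lines, and CCND1 and PPARD passed with Smad3(RA/KP). NOTUM and DACT1 reached a mean of 1 TPM only through their treated libraries, so the counts of this list are a description. BMP4, a ligand of the TGF-β family, was lower in both lines (−1.50 ± 0.26, limma adjusted p = 0.0114, and −1.22 ± 0.26, limma adjusted p = 0.0305), and ID2 was lower with wild-type Smad3 (−0.94 ± 0.18, limma adjusted p = 0.0174). Genes that did not pass in either line went both ways. MYC (0.40 ± 0.16 and 0.60 ± 0.16) and TBX3 (0.79 ± 0.22 and 0.75 ± 0.22) were higher. MMP7 (−0.335 ± 0.18 and −0.42 ± 0.18) and ZNRF3 (−0.28 ± 0.26 and −0.14 ± 0.26) were lower. AXIN2, described above among the 42, is not in this list and was lower in all 4 ratios. The median log2 fold change of the list was 0.44 and 0.41, beside −0.06 and −0.10 over all genes. Several genes of the list are also known targets of TGF-β itself, and what drove them was not tested.

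Of 19 tested genes for calcium or planar polarity signalling, CAMK2D, a calcium-dependent kinase, was lower in both lines (−1.13 ± 0.26, limma adjusted p = 0.0475, and −1.38 ± 0.26, limma adjusted p = 0.0205). PLCB3, a phospholipase, rose with Smad3(RA/KP) (0.74 ± 0.18, limma adjusted p = 0.0470). Without untreated replicate 2 of Smad3(RA/KP), 4 of the 16 list genes called in that line passed (NOTUM, DVL1, JUN and EPHB2), and the other 12 had the same direction with an adjusted p of 0.0662 to 0.199, with 2.69% of all genes called. With the GC trend removed, SDC1, SDC4, LGR4, TCF7L1, SOX4, CCND1 and ID2, each called above in a single line, passed in both lines. Their limma adjusted p was 0.00411 to 0.0244, beside 10.4 and 7.96% of all genes with a GC value called. PLCB3 no longer passed there (limma adjusted p = 0.0651). No gene of the 6 lists passed for the difference of responses or between the lines. NOTUM, DACT1 and a few other genes stand in 2 lists, so the counts of the lists are not independent.

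**Figure D4:**
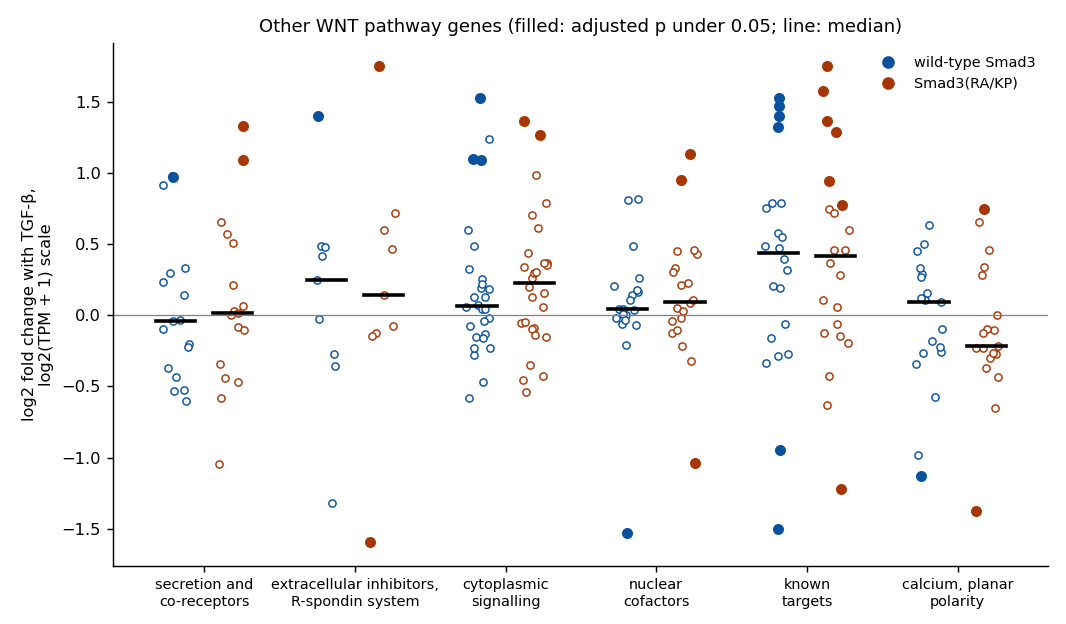
Log2 fold change with TGF-β (vertical axis, log2(TPM + 1) scale) of each tested gene in 6 lists of WNT pathway components, with wild-type Smad3 (blue) and Smad3(RA/KP) (red). Filled points have an adjusted p under 0.05 and black lines are list medians, which are highest for the known targets, at 0.44 and 0.41.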

How the data were processed

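The 8 RNA libraries fell by their labels into 4 groups of 2. The submitters' processing notes name HISAT2 2.1.0, StringTie 2.0.4 and GRCh38. StringTie was run without de novo assembly, per the study's methods. The annotation: not given in the sources used here. Deposited values were, for each of 33122 records per library, the TPM (scaled to 1000000 per library), the FPKM (per length and mapped fragments) and the mean base coverage. Mapped bases were taken as the commonest ratio of coverage to FPKM. The files give no counts, so no counting intervals are given.

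Records of 1 symbol were summed. The 13141 genes whose mean reached 1 TPM were tested on the log2(TPM + 1) scale with limma 3.58.1 (R 4.3.3), with a term per group, the replicate number as a block, a mean-variance trend, 3 residual and 5.9 prior degrees of freedom, and Benjamini-Hochberg adjustment at 0.05. The 1 TPM added makes fold changes of low genes too small. The script was tested on simulated data. The replicate number was assumed to mark the experiment. Deviations from the group means of libraries with the same number correlated at 0.0484 to 0.332 between pairs of groups across genes, and only the pair of untreated and treated Smad3(RA/KP) was under 0.1. GC content came from the longest GENCODE transcript, for 87.8% of genes tested. Figures were drawn with matplotlib 3.10.9.

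The members and gene lists were chosen with earlier results of these data known. Members with a mean of at least 1 TPM are named, with every value where they passed or had 1 of the 8 smallest p in either line, and up to 6 genes per pathway list, those that passed first. FZD9, SFRP1, SFRP5, AXIN2 and TCF7L2 were given values outside that rule, after their values were seen. The list of β-catenin targets names more than 6 genes. MYC, TBX3, MMP7 and ZNRF3 in it, which did not pass, were also added after their values were seen. Alternatives tried were 2 other pseudocounts, 2 other filters, FPKM, median-ratio scaling, no block, no trend, removal of the GC trend, the largest record per symbol, and leaving out each library.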

Additional observations from a re-analysis of the deposited data

Results flagged for a closer look

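The TPM of FZD9 differed in opposite directions in the 2 lines, though neither response passed (limma adjusted p = 0.601 and 0.334). With wild-type Smad3 it was lower with TGF-β in both experiments, by 0.09 and 0.62 on the log2(TPM + 1) scale, and with Smad3(RA/KP) it was higher in both, by 0.54 and 0.36. The difference of the responses was 0.804 ± 0.365, with an unadjusted limma p of 0.0556 and an adjusted p of 0.881, so it did not pass. With the GC trend removed it was 0.391 (adjusted p = 0.935), and the transcript used for GC content was 68.5% GC. All 8 values lay between 2.20 and 4.32 TPM. With 2 libraries a group, no library could be called an outlier.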

How the results depend on the processing

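Results were recomputed under 18 alternatives, and under 17 for WNT7A, WNT9A, WNT11 and FZD9, which a minimum mean of 5 TPM leaves out. With wild-type Smad3, 5 of 23 genes passed; 3 of 30 passed with no filter on low values (TCF7, WNT5B and WNT7A), and 2 to 7 when 1 library was left out, with 0.807 to 7.69% of all genes called. With Smad3(RA/KP), 4 passed, and 2 to 5 when 1 library was left out, with 1.24 to 20.0% of all genes called. With the GC trend removed the same 7 genes passed in both lines (DKK1, FZD2, LRP5, TCF7, WNT5B, WNT7A and WNT7B), beside 10.4 and 7.96% of 11535 genes. Fewest passed without either treated wild-type library, or without treated Smad3(RA/KP) replicate 2. Without the replicate block 4 genes passed with wild-type Smad3 (FZD2 was lost) and 3 with Smad3(RA/KP) (DKK1 was lost), while over all genes 277 and 269 passed in place of 615 and 655. With no filter 287 and 242 of 18383 genes passed. The causes were not tested. FZD9's difference of responses was 0.391 with the GC trend removed and 0.414 with 5 TPM added, in place of 0.804. WNT5B and TCF7 passed under all 18 in both lines, with adjusted p up to 0.0138 and 0.0475. No gene passed for the difference of responses or between the lines under any of them. That difference turned sign for WNT5B with 5 TPM added (−0.035) and with the GC trend removed (−0.017), and for DKK1, where it was −0.465 to 0.0296 when a library was left out, without treated Smad3(RA/KP) replicate 2. The files give no counts, so what depth alone limits cannot be computed.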
